A study of Rattus norvegicus with 10 samples.

Results

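Adenosine deaminase (Ada) and 9 other enzymes of purine salvage (Pnp, Adk, Hprt1, Aprt, Gda, Nt5e, Nt5c2, Ampd2 and Ampd3) were followed in RNA from milk fat collected from rat dams. Members were found by their gene symbol in the deposited expression table. The group was chosen by the expression values of Ada, which was already known to be among the genes highest in enriched over standard housing in these libraries, so the housing difference of Ada is described here without a test. Of the 10 genes, 8 were among the 16748 genes of the table, and Hprt1 and Nt5c2 were not analysed here. All 8 varied between libraries and were among the 12992 genes tested. Of these 8, 7 had a mean normalized count of at least 10, and Nt5e did not.

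The EE group consisted of wild-type Sprague-Dawley females kept as pairs in a large cage with environmental enrichment, and the SD group of wild-type Sprague-Dawley females kept as pairs in standard laboratory cages. Shortly before giving birth, EE dams were set apart by a divider within their cage and SD dams were moved to cages of their own. In the home cage, SD dams were thus without another dam, whereas EE dams kept some contact across the divider. Before milking, dams of both groups were moved to a clean cage in another room. Dams of both groups nursed litters of standardized size that included pups cross-fostered from the other housing. Milk was taken from both groups on postnatal day 10 (P10), after a period away from the litter, under light isoflurane anaesthesia and after an injection of oxytocin, so every dam of both groups had received both agents. RNA-seq libraries were made from the fat layer, with 5 libraries from EE dams and 5 from SD dams, each described as a biological replicate. The sources used here do not say which dams shared a cage, nor give the age of the dams, so p-values reflect only how far these libraries varied.

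Purines are recycled by a short set of enzymes. Adenosine is either deaminated to inosine by Ada or phosphorylated to AMP by Adk, inosine is split by Pnp into hypoxanthine and a ribose phosphate, and free bases are returned to nucleotides by Hprt1 and Aprt. Inherited loss of adenosine deaminase in humans causes severe combined immunodeficiency, since lymphocytes are sensitive to the build-up of deoxyadenosine, and the lactating mammary gland secretes nucleotides and nucleosides into milk.

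Ada and Pnp catalyse consecutive steps and were the members whose counts in every EE library exceeded those of 4 SD libraries, and the bases upstream of their start sites are printed so that their promoters can be read side by side. The sequences are from RefSeq on the rat build GRCr8, which is not the build (rn6) that the authors aligned to, and each gives the 250 bases before the annotated start, 5′ to 3′ on the gene's own strand. Capitals mark matches on either strand to one of 5 motifs, namely the GC box (GGGCGG), the CCAAT box, the TATA box (TATAAA), an E box (CACGTG) and the palindrome TTCNNNGAA. Ada lies on the minus strand at chr3:172842284-172842533, and Pnp on the plus strand at chr15:26643897-26644146.
Ada: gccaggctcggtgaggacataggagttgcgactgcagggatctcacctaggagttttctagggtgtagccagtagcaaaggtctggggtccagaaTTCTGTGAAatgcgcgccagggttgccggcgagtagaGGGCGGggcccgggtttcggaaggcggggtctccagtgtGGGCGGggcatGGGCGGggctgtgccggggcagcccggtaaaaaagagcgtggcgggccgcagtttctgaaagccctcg
Pnp: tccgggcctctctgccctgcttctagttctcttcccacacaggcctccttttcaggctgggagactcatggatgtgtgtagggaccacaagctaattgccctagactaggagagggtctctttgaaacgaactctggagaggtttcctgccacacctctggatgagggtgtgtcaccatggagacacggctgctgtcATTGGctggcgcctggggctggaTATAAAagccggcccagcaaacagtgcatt
The Ada stretch held 3 GC boxes, beginning 118, 79 and 68 bases before the start, and 1 match to TTCNNNGAA at 155 bases, with no CCAAT box, TATA box or E box. The Pnp stretch held a CCAAT box, read as ATTGG, at 53 bases and a TATA box at 30 bases, with no GC box. Their GC contents were 64% for Ada and 55.6% for Pnp, against a median of 51.2% over all 33469 promoters of the reference table. Among all of these, 30.5% of promoters of the same length held a GC box, 34.0% a CCAAT box, 12.9% a TATA box, 5.59% an E box and 7.67% the palindrome. An entry was given for 9 of the 10 members, and of those with expression values, Adk had 4 GC boxes, Aprt 3, Nt5e 3, Ampd2 2 and Gda 1. Adk also had 3 CCAAT boxes, and Aprt and Gda 1 each. Aprt had a TATA box too, at 202 bases. GC contents were 66% for Adk, 50.4% for Aprt, 68.8% for Nt5e, 63.6% for Ampd2 and 64% for Gda, so that of Ada was not unusual among members. A match is a description of letters only.

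Normalized counts in the following are the authors' size-factor-scaled read counts, recovered from the deposited log2 values. They are comparable between libraries for 1 gene, but not between genes, since transcript lengths were not used. The libraries held an estimated 51816500 to 63735600 reads in EE and 43366600 to 70082600 reads in SD. The secretory epithelium markers Csn2, Lalba, Wap, Elf5 and 10 others were all present, with 2 of the 14 lower and 0 higher past an unadjusted limma p of 0.05, and the 5 casein genes took 40.4% to 61.0% of counts in EE libraries and 57.0% to 61.2% in SD libraries. The casein share was 8.39 percentage points lower in EE. This difference did not pass a two-sided exact permutation test over all arrangements of 5 against 5 libraries (p = 0.0556). It passed only without EE 4, the EE library with the highest share (fell by 10.9 points, exact p = 0.00794). Leaving out any other single library gave an exact permutation p of 0.0556 to 0.143. SD replicate 4 (SD 4) stood apart. The authors' own means matched those of the 9 other libraries (SD of the log2 ratio 0.0220 over 1354 genes) better than those of all 10 (0.0807), and results are therefore given over all 10 libraries and without SD 4. Its median correlation with the other libraries of its group was 0.979, against 0.983 to 0.989 for every other library. Of 476 genes that separated the groups fully without SD 4, this library lay at or past the nearest EE library in 315 (66.2%). That share is a description only. These genes were picked without SD 4, which favours such a place, and no other library was left out in the same way for comparison.

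Ada, which turns adenosine and deoxyadenosine into inosine and deoxyinosine, was higher in EE libraries than in 4 of the 5 SD libraries. Its normalized counts were 619.6, 621, 465, 562 and 461 in EE 1 to EE 5, against 294, 304, 293, 551 and 295 in SD 1 to SD 5. SD 4 fell inside the EE range, above EE 3 and EE 5, so the groups overlapped by this 1 library, while the 4 other SD libraries lay between 293 and 304 counts. The mean was 546 ± 79.0 in EE (SD, n = 5), against 347 ± 114 in SD (SD, n = 5) or 296 ± 5.33 without SD 4 (SD, n = 4). On the log2 scale the difference was 0.57 with a standard error (SE) of 0.17, and the ratio of the means was 1.57. Without SD 4 it was 0.72 (SE 0.12) with a ratio of 1.84, and every EE library then lay above every SD library. The 340 reads estimated for Ada in SD 4 gave an exact 95% Poisson interval of 495 to 614 normalized counts, the highest upper bound in the other SD libraries was 340.3 (SD 2), and the lowest lower bound in EE was 429 (EE 5). These intervals cover counting error only, and not the spread between dams.

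**Figure D1:**
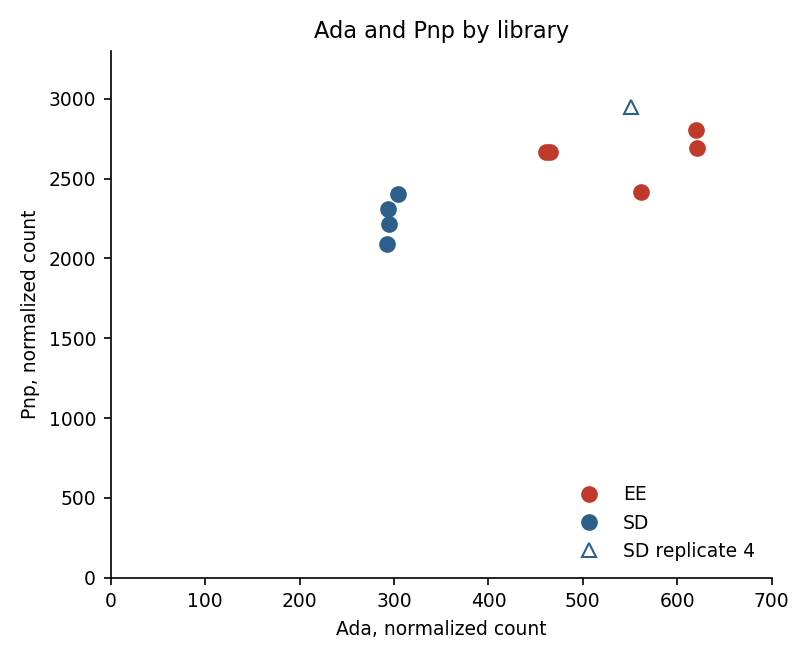
Normalized counts of Ada (horizontal axis) and Pnp (vertical axis) in each library, with EE and SD libraries in different colours and SD 4 drawn as an open symbol. SD 4 has the highest Pnp count (2947) and an Ada count (551) inside the EE range, and the 4 other SD libraries lie below every EE library on both axes.

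Pnp, the purine nucleoside phosphorylase that splits inosine and guanosine, takes the product of Ada. It counted 2802, 2691, 2666, 2418 and 2667 in EE 1 to EE 5, against 2307, 2401, 2089, 2947 and 2216 in SD 1 to SD 5. The highest value of all 10 was that of SD 4, and the 4 other SD libraries were all below the lowest EE library. The margin was narrow, 2418 in EE 4 against 2401 in SD 2. The mean was 2649 ± 140.5 in EE, against 2392 ± 331 in SD (SD, n = 5 each). The log2 difference of all libraries was 0.15 (SE 0.097, 95% interval -0.060 to 0.36), which did not pass in limma (adjusted p = 0.763 over all genes). Without SD 4 it was 0.23 (SE 0.072), past an unadjusted p of 0.05 but not past the adjusted one (limma adjusted p = 0.376). Over all 10 libraries 0 of the 8 members had every EE library above every SD library, which held for 0.754% of all genes. Without SD 4 it held, among the 7 members other than Ada, for Pnp alone, and for 2.12% of all 12955 genes. It held for Ada too, which is a description, since Ada was chosen by its values. Across the 10 libraries the log2 values of Ada and Pnp had a Pearson r of 0.83, which is given as a description, since the Ada values fall into 2 levels.

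Adk, the adenosine kinase that competes with Ada for adenosine and makes AMP, did not share this pattern. Its counts were 4005, 4271, 4587, 4626 and 4302 in EE, against 4498, 3709, 4637, 3417 and 4808 in SD. The groups overlapped, both the lowest and the highest value were in SD, and the lowest was SD 4. The log2 difference was 0.058 (SE 0.10, 95% interval -0.17 to 0.29, limma adjusted p = 0.917), and it was -0.013 without SD 4. The ratio of Ada to Adk sets deamination against phosphorylation of the same substrate at the level of mRNA. Per 100 counts of Adk there were 15.5, 14.5, 10.1, 12.1 and 10.7 counts of Ada in EE 1 to EE 5, against 6.53, 8.20, 6.31, 16.1 and 6.14 in SD 1 to SD 5. SD 4 had the highest value of all libraries, and the 4 other SD values were below all EE values. Against Pnp, the next enzyme, the picture was similar. Per 100 counts of Pnp there were 22.1, 23.1, 17.4, 23.2 and 17.3 counts of Ada in EE, against 12.7, 12.7, 14.0, 18.7 and 13.3 in SD. The other SD libraries again lay below the EE range, but SD 4 was here within it and not above it. Both ratios contain Ada and carry its choice, so they are descriptions.

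**Figure D2:**
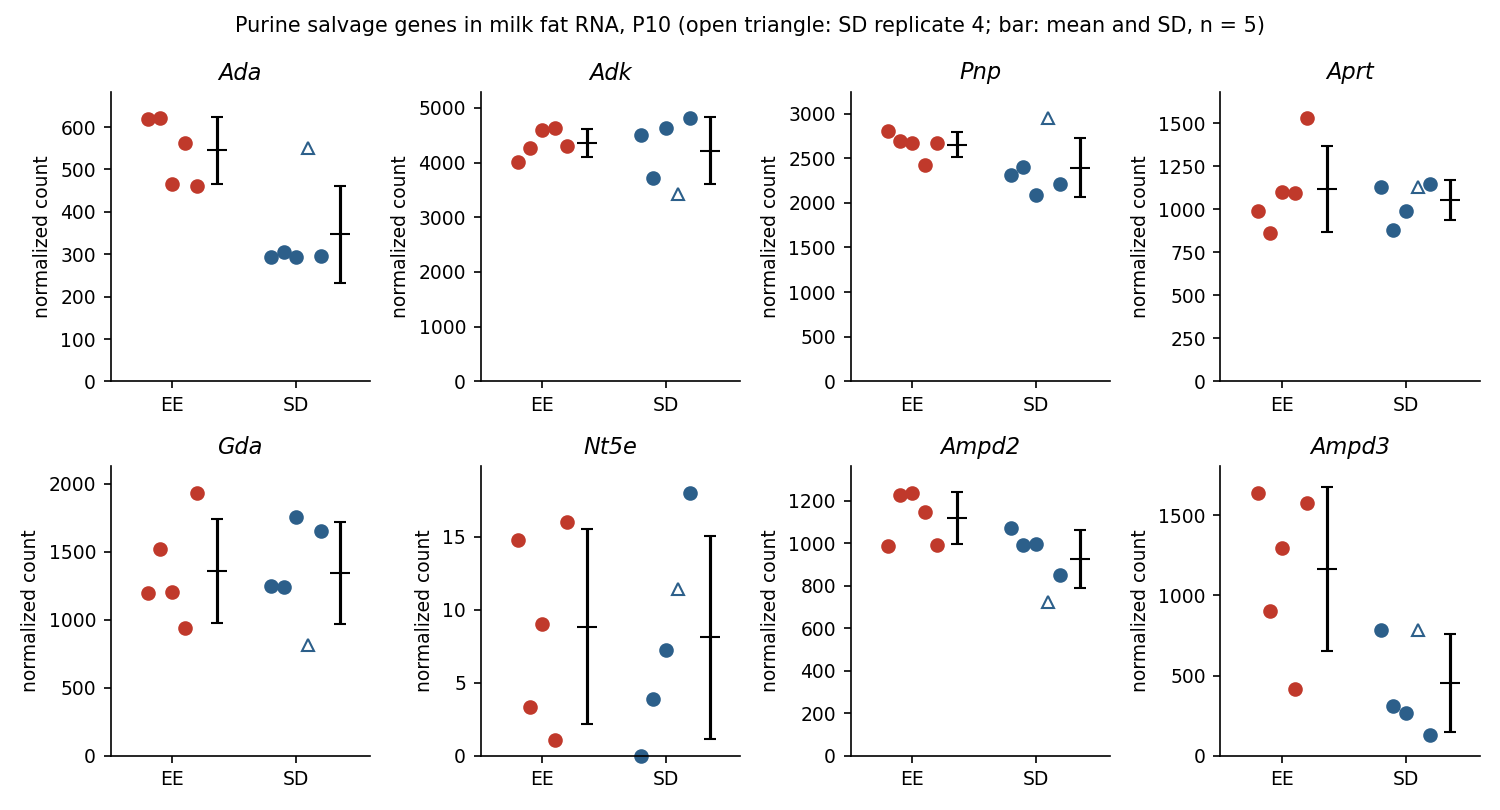
Normalized counts of the 8 members with expression values, 1 panel a gene, in the 5 EE libraries (left) and 5 SD libraries (right), with the mean and SD of each group and SD 4 as an open symbol. Ada shows 4 SD libraries between 293 and 304 counts below all EE libraries, whereas Adk, Aprt, Gda and Nt5e overlap throughout.

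AMP deaminase converts AMP to IMP, and 2 members encode it. Ampd3, the form best known from red blood cells, had the largest log2 difference of the members and also the widest spread. Its counts were 1642, 904, 1296, 414 and 1576 in EE 1 to EE 5, against 781, 309, 264, 783 and 131 in SD 1 to SD 5. The groups overlapped because EE 4 lay below SD 1 and SD 4, and the other 4 EE libraries exceeded every SD library. The mean was 1166 ± 511 in EE, against 454 ± 307 in SD (SD, n = 5 each). The log2 difference was 1.3 (SE 0.43, 95% interval 0.37 to 2.24) and the ratio of the means 2.57. It was past an unadjusted limma p of 0.05 but not past the adjusted one (limma adjusted p = 0.579). Without SD 4 it was 1.53 (SE 0.43, limma adjusted p = 0.327).

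Ampd2, the form known from liver and many other tissues, showed a smaller difference. It counted 988, 1227, 1238, 1147 and 992 in EE, against 1069, 989, 997, 724 and 852 in SD. The lowest value of all was SD 4 and the ranges overlapped, since SD 1, SD 2 and SD 3 all lay above EE 1. The log2 difference was 0.26 (SE 0.12), just past an unadjusted p of 0.05 but not past the adjusted one (limma adjusted p = 0.674). Without SD 4 it was 0.18 (SE 0.10, limma adjusted p = 0.558) and past neither. For Ampd2, unlike Ada and Pnp, SD 4 was thus the SD library furthest below EE. Of the summed counts of both genes, Ampd3 made up 62.4%, 42.4%, 51.2%, 26.5% and 61.4% in EE 1 to EE 5, against 42.2%, 23.8%, 21.0%, 52.0% and 13.4% in SD 1 to SD 5. This share, which also depends on the lengths of both transcripts, was highest in EE 1 and lowest in SD 5, and EE 4 and SD 4 crossed between the groups.

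**Figure D3:**
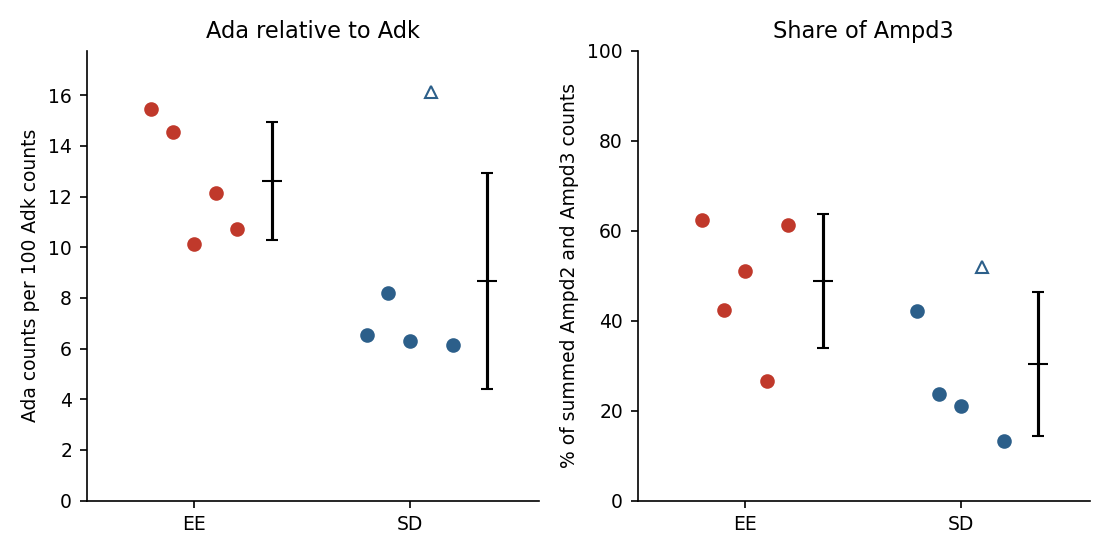
Ada counts per 100 counts of Adk (left panel) and the share of Ampd3 in the summed counts of Ampd2 and Ampd3, in percent (right panel), by library, with EE left of SD, the group mean and SD, and SD 4 as an open symbol. For Ada per 100 Adk, SD 4 (16.1) is above all EE libraries and the other SD libraries (6.14 to 8.20) are below them, while the share of Ampd3 overlaps between the groups.

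The enzymes that handle free bases were level between the groups within their spread. Aprt, which joins adenine to phosphoribosyl pyrophosphate to form AMP, counted 993, 862, 1102, 1098 and 1529.5 in EE, against 1129, 880.4, 992, 1129 and 1148 in SD. The EE values spanned those of SD at both ends. Its log2 difference was 0.058 (SE 0.14, 95% interval -0.24 to 0.36, limma adjusted p = 0.940), and it turned to -0.054 without EE 5, the highest library. Gda, which deaminates guanine to xanthine and so removes it from salvage, counted 1198, 1519.7, 1206, 935 and 1934 in EE, against 1244, 1242, 1754, 816 and 1649 in SD. Its range was wide within each group, and the difference was 0.022 (SE 0.21, 95% interval -0.44 to 0.49, limma adjusted p = 0.985), with -0.13 without SD 4. The intervals of both genes include differences of 0.24 and more in either direction, so they do not show that these genes were equal.

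Nt5e, the cell-surface enzyme CD73 that turns extracellular AMP into adenosine, was close to the limit of detection. Its normalized counts were 14.8, 3.30, 9.04, 1.06 and 16.0 in EE, against 0, 3.88, 7.22, 11.4 and 18.0 in SD. They rest on at most 27 reads in EE and 14 in SD, and the 0 in SD 1 allows up to 5.02 normalized counts by the exact 95% interval. The groups overlapped fully. The log2 difference was 0.061 (SE 0.18, limma adjusted p = 0.953) on a scale whose floor compresses such low values.

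Over the 7 members other than Ada, all 7 had a log2 difference above 0 over all 10 libraries, where 48% of all genes did. An unadjusted limma p under 0.05 was reached by Ampd2 and Ampd3, beside 3.35% of all genes with higher values in EE, and an adjusted p under 0.05 by 0 members and 0 genes (0%), where the unadjusted threshold was passed by 435 genes with higher and 526 with lower values. The median difference was 0.061 over these 7 members, against -0.0087 over all genes. Without SD 4, 5 of the 7 were above 0 (49.7% of all genes), and the unadjusted threshold was passed by Ampd3 and Pnp (5.15% of all genes passed it with higher and 5.24% with lower values in EE). The median was then 0.11, against -0.0016 over all genes, and 1 gene of 12955 (0.00772%), Akap9, which is no member, passed the adjusted threshold.

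**Figure D4:**
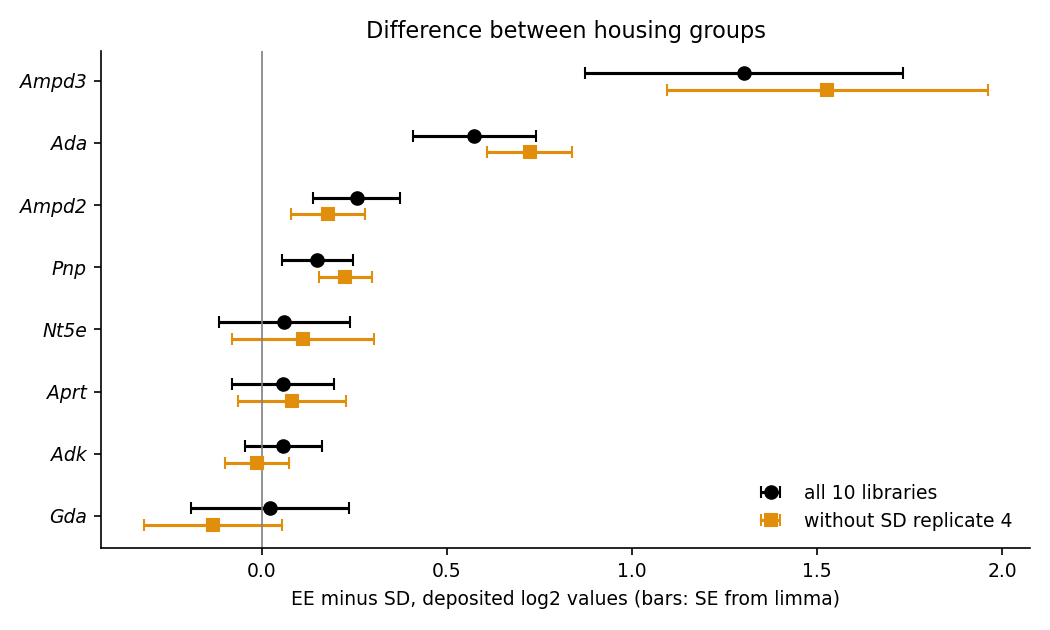
Log2 difference (EE minus SD) of each of the 8 members with its SE from limma as a bar, over all 10 libraries and without SD 4. Leaving out SD 4 moves Ada to 0.72 and Pnp to 0.23, both higher, and moves Ampd2 to 0.18, Adk to -0.013 and Gda to -0.13, all lower, while the SE of Ampd3 (0.43) is the widest.

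The remaining genes of purine and pyrimidine metabolism were taken from 10 lists with 101 genes, of which 93 were in the table and 88 were tested. At an unadjusted limma p under 0.05, 3 were higher in EE and 2 were lower, and 0 passed after adjustment. The background at that threshold is 3.35% of genes higher and 4.05% lower, and 3 of 88 and 2 of 88 are near it. The median difference over the 88 genes was 0.027.

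Purine rings are built de novo as IMP by a chain of enzymes, and the list for it held 10 tested genes. Among them, Prps1, Prps2, Prpsap1 and Prpsap2 concern the making of phosphoribosyl pyrophosphate, ahead of the chain. Their differences were 0.13, 0.12, 0.00025 and 0.16. Over the whole list 8 differences were above 0, and the 2 below 0 were Ppat (-0.0024) and Paics (-0.13), both of the chain. At an unadjusted p under 0.05, 2 listed genes were higher and 0 lower, with a list median of 0.11 (0.029 without SD 4). Adsl, adenylosuccinate lyase, acts both in this chain and in the making of AMP from IMP. It counted 1480.0, 1744, 1673, 1397 and 1678 in EE, against 1175, 1320.2, 1369.8, 1325 and 1344 in SD. Every EE library exceeded every SD library, SD 4 included, and the log2 difference was 0.27 (SE 0.089, limma adjusted p = 0.582). Atic, which carries out the last steps to IMP, counted 4243, 3779, 4190.0, 4238 and 3726 in EE, against 3548, 3626, 3875, 3094 and 2995 in SD. SD 3 lay above EE 2 and EE 5, and the difference was 0.23 (SE 0.091, limma adjusted p = 0.637). Where IMP branches to AMP and GMP, 6 genes were tested and 0 passed in either direction (median -0.077). The IMP dehydrogenases, which commit IMP to GMP, had differences of 0.25 for Impdh1 (limma adjusted p = 0.727) and -0.16 for Impdh2 (limma adjusted p = 0.766).

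The lists set up around the supply of adenosine to Ada and Adk gave few calls. The list of ecto-nucleotidases and related enzymes held Entpd1 to Entpd7, Enpp1 to Enpp4, Alpl, Cd38 and Bst1 as tested genes. Not all of them break down extracellular ATP and ADP, so the list is not a measure of that step. Among these 14 tested genes, 0 were higher and 1 was lower in EE (median -0.064). It was Enpp3, with counts of 2181, 2039, 1202, 2576 and 949 in EE, against 2472, 2944, 2519, 3152 and 1709.5 in SD. The ranges overlapped, and the log2 difference was -0.56 (SE 0.25, limma adjusted p = 0.673). Without SD 4 it was -0.48 and no longer past the unadjusted threshold (limma adjusted p = 0.559). The list around S-adenosylhomocysteine and methylthioadenosine (Ahcy, Ahcyl1, Ahcyl2, Mtap and Adal), in which Ahcy is the enzyme that releases adenosine, had 5 of 5 differences above 0 (median 0.16), but 0 passed in either direction. The 2 with the smallest p were Mtap, which releases the adenine that Aprt salvages (0.22, limma adjusted p = 0.718), and Adal, an adenosine deaminase-like gene (0.19, limma adjusted p = 0.785).

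Transporters of nucleosides and bases had the lowest median of the lists, -0.27 over 7 tested genes, with 0 higher and 1 lower. Slc29a4, which moves adenosine and monoamines across the membrane, counted 41.2, 50.6, 93.3, 17.0 and 72.5 in EE, against 42.2, 188, 114, 106 and 153 in SD. SD 1 lay within the EE range and the other SD libraries above it, and the log2 difference was -0.63 (SE 0.25, limma adjusted p = 0.646). With log2 of the normalized count plus 1 it was -1.17, since the floor of the deposited scale compresses low counts. Of the adenosine receptors and Dpp4, the membrane protein that binds adenosine deaminase in humans, 4 genes were tested and 0 passed (median -0.013). Adora2b counted at most 11.1 in EE and 1.28 in SD, and Adora1 lay between 40.6 and 66.5 in EE, against 27.5 to 93.6 in SD.

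In the other lists, 8 further nucleotidase and AMP deaminase genes (median 0.062) and 14 nucleoside and nucleotide kinases (median -0.042) gave 0 calls in either direction. The genes of smallest p in them were Ampd1 (log2 difference 0.26) and Nt5m (-0.17) in the first, and Nme3 (-0.23) and Ak4 (-0.29) in the second, with limma adjusted p between 0.723 and 0.880. Ampd1 and Ak4 had few counts, at most 14.8 (EE 1) and 17.7 (SD 1), and their differences are compressed by the floor of the scale. Of the genes that break purines down to allantoin, 1 was tested. That was Xdh, which makes uric acid and is also a structural protein of the milk fat globule membrane, and it differed by 0.053 (limma adjusted p = 0.959), with counts of 1.86e+05 to 2.30e+05 in EE, against 1.63e+05 to 2.42e+05 in SD. Pyrimidine genes were counted as a neighbouring pathway, and of 19 tested, 1 was higher and 0 were lower (median 0.078).

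That gene, Umps, makes UMP at the end of pyrimidine synthesis and resembled Ada by library. It counted 449.8, 592, 556, 521 and 479.6 in EE, against 280.2, 368, 333, 516 and 340.2 in SD. SD 4 lay within the EE range and the 4 other SD libraries below it. This pattern is not particular to Ada and Umps. Of 275 genes higher in EE and fully separated without SD 4, SD 4 lay at or above the lowest EE library in 177 (64.4%). The log2 difference was 0.44 (SE 0.14, limma adjusted p = 0.561), and without SD 4 it was 0.55 (SE 0.11, limma adjusted p = 0.229).

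**Figure D5:**
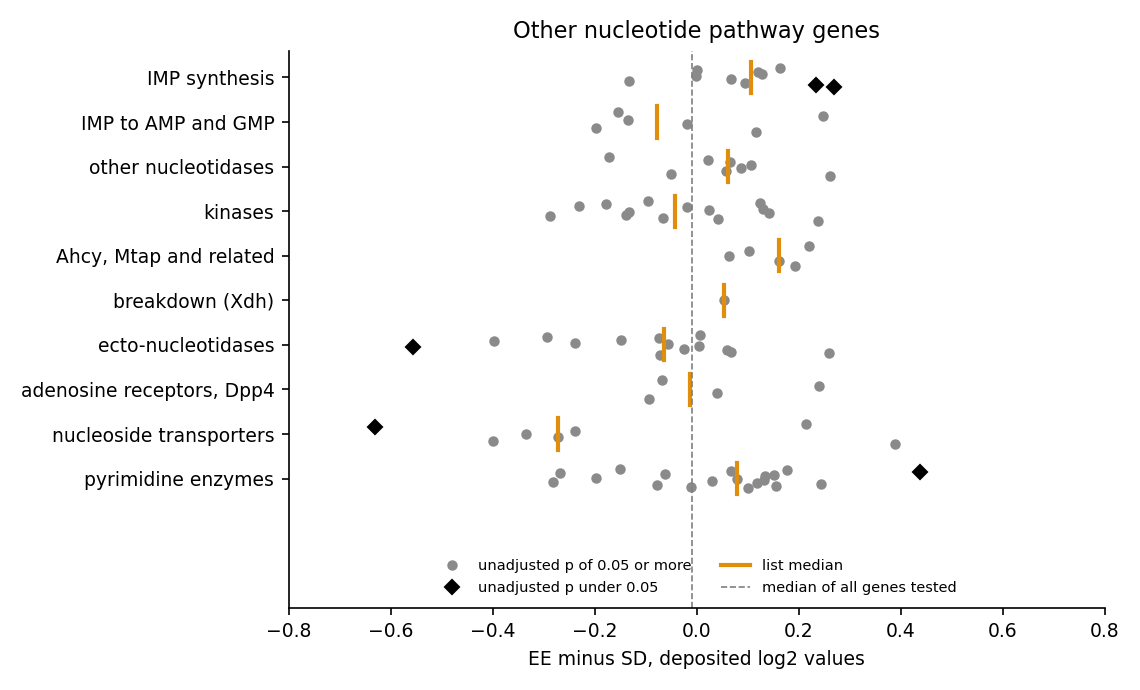
Log2 difference (EE minus SD, over all 10 libraries) of each tested gene of the 10 purine and pyrimidine lists, 1 row a list, with the list median as a bar, genes at an unadjusted limma p under 0.05 as diamonds and the median of all genes as a dashed line. Medians lie between -0.27 (transporters) and 0.16 (the list with Ahcy and Mtap), and single genes scatter on both sides of 0 in all lists but that one and the breakdown list, which has 1 gene.

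The genes most like Ada across the 10 libraries were taken from 8129 non-member genes with a mean normalized count of at least 100, by the Pearson r of the log2 values. They were Pus1 (r = 0.95), a pseudouridine synthase, Casp9 (0.94), an initiator caspase, Nop9 (0.94), a nucleolar protein, Eif2b1 (0.93), a subunit of a translation initiation factor, and Dohh (0.91), which helps to make hypusine. The likeness rests on 2 levels of Ada, with 4 SD libraries low and 6 libraries high. Pus1, for example, had 505 to 581 counts in EE, against 376 to 433 in the 4 SD libraries without SD 4 and 557 in SD 4. Among members, Pnp ranked at place 57 and Ampd3 at place 385 (r = 0.65), followed by Ampd2 (0.18), Aprt (-0.027), Adk (-0.31) and Gda (-0.40).

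When each library was set against its own group mean, the closest genes were others, namely Mrpl14 (r = 0.95), Gsto1, Golga7, Zdhhc18 and Fdps (0.93 each). SD 4 weighs heavily here too. Fdps, a farnesyl diphosphate synthase of sterol synthesis, had 8613 to 11816 counts in EE, against 18049 in SD 4 and 6914 to 10020.4 in the other SD libraries. By this measure Pnp ranked at place 243 (r = 0.78) and Adk ran opposite to Ada (-0.72). SD 4 had the highest Pnp count and the lowest Adk count of all libraries. These correlations are across 10 libraries that share the scaling of each library, and are given without a p.

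Ada and Nt5e are also expressed by lymphocytes, and Ampd3 by red cells, so markers of other cell types were counted in the same libraries. The 10 T cell markers in the table summed to 177 to 388 normalized counts in EE, against 154 to 318 in SD, where SD 4 was highest with 318. Of these 10, 1 was higher in EE at an unadjusted limma p under 0.05, namely Lck with 72.0 to 119 counts, against 35.4 to 66.1 in SD (limma adjusted p = 0.506), while Cd3d had at most 9.03 in EE and 11.0 in SD. B and plasma cell markers were nearly absent, with 4 of 6 at 0 in all libraries (Cd79b, Cr2, Pax5 and Mzb1) and a sum of at most 3.16 in EE, against 0 in SD. Erythroid markers (5 in the table, 1 higher in EE) summed to 294 to 1633 in EE, against 286 to 531 in SD. The top of the EE range was EE 3 alone, with 1155 counts of Hba1 and 362 of Hbb. The other EE libraries had 70.1 to 308 and 5.46 to 34.5, and SD libraries 167 to 338 and 9.43 to 96.1. The erythroid marker called was Hba-a2 (limma adjusted p = 0.658), with 0, 126, 4.26, 59.4 and 0 counts in EE 1 to EE 5, against 0 in every SD library. It belongs to a family of near-identical globin genes between which reads can be split, so its own level is uncertain. Macrophage markers (10, of which 0 were higher and 2 lower in EE) summed to 331 to 1635 in EE, against 623 to 2694 in SD, and Cd14 had 174 to 209 counts in EE, against 239 to 684 in SD (limma adjusted p = 0.417). Neutrophil markers (8, 0 in either direction) summed to 53.9 to 308 in EE, against 53.3 to 255 in SD, and Mpo and Elane were at 0 throughout. Myoepithelial markers (8, 1 higher and 1 lower) summed to 2574 to 3084 in EE, against 1657 to 3054 in SD, and SD 4, with 2061, lay inside the SD range. The 2 called were Acta2 (1922 to 2699 in EE, against 1369 to 2066 in SD, limma adjusted p = 0.506) and Myh11 (18.9 to 41.6 in EE, against 26.6 to 126 in SD, limma adjusted p = 0.561). Adipocyte markers (6, 0 higher and 1 lower, Plin1 at 0) summed to 181 to 363 in EE, against 237 to 566 in SD with SD 4 highest, and endothelial and fibroblast markers (7, 0 higher and 1 lower, Col3a1 and Dcn at 0) to 18.0 to 113 in EE, against 30.0 to 83.1 in SD. The part of any of these cell types in the values of the members was not tested, and fewer cells of a type and less RNA per cell cannot be told apart in these libraries.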

How the data were processed

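RNA of the milk fat layer was measured in 5 EE and 5 SD libraries on P10. The labels of the samples give the housing group and the replicate number. The authors sequenced stranded mRNA libraries as single-end reads, aligned them to the rat build rn6 and used DESeq2. The read counter and annotation are not given in the sources used here. The per-library values deposited by the authors are log2 values, named regularized log. They share a lowest value of 5.46 and follow the closed form of a variance-stabilizing transformation, which was inverted to normalized counts. This floor compresses the differences of genes with low counts. Unless another scale is named, log2 differences, list medians and the fold threshold are on the deposited scale. The normalized mean signal deposited by the authors beside their comparison was used to check that inversion. The other columns of that table hold the authors' own fold changes, standard errors, test statistics and p-values, and were not used.

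Of 16748 genes, 3756 had 1 value in all libraries and were left out, which left 12992 (12955 without SD 4). The two-sided moderated test of limma 3.58.1 (R 4.3.3; lmFit, then eBayes with trend) gave EE minus SD for each gene, and p was adjusted by Benjamini-Hochberg over all of them. A count test was not run, since the values are not counts. Thresholds were a p or adjusted p of 0.05 and, where counts of genes are given by size, a fold of 1.3. Estimated reads come from the step between low normalized counts, of which 89.8% to 98.1% below 10 reads were within 0.1 of a whole read. On simulated data over 12992 genes, limma recovered 29.9%, 83.6% and 98.5% of genes changed by 0.5, 1 and 2 (log2), with 8 of 149 calls false. The noise was drawn independently for each gene and library, with no outlying library and no variation shared between genes. These shares therefore need not hold in the real libraries.

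The members and lists were chosen with earlier results of these data known. The text names all 10 members. From each list it names genes past an unadjusted p of 0.05 and a fold of 1.3, at most 4, or else the 2 with the smallest p. It also names the 5 genes most correlated with Ada on either measure. Other genes and the markers with values were named after their values were seen. Alternatives were a filter at a mean normalized count of 10, quantile and median scaling, scaling to totals outside the caseins, log2 of the count plus 1, no variance trend, array weights, a replicate block and each library left out.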

Additional observations from a re-analysis of the deposited data

Results flagged for a closer look

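Groups of 5 libraries were searched for a library far from its group mates by Dixon's ratio (critical value 0.71). Ada and its ratios to Adk and Pnp were left out, since Ada was chosen by its values. Of 52 groups searched, 1 held such a library, where chance gives about 1 in 20. Adsl was far below its group in SD 1, at 1175 normalized counts against 1320.2 to 1369.8 in the other SD libraries.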

How the results depend on the processing

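Ampd3, Ampd2 and Pnp kept a difference above 0 in all 18 alternatives, with log2 differences of 1.02 to 1.64, 0.18 to 0.41 and 0.11 to 0.29. No member other than Ada, which was not tested, passed a limma adjusted p of 0.05 in any (lowest 0.311, Ampd3). The difference of Ada ranged from 0.53 to 0.82, which is a description, since Ada was chosen by its values in these libraries. Leaving out 1 library at a time, Adk ranged from -0.013 to 0.11, Aprt from -0.054 to 0.14, Gda from -0.13 to 0.14, Nt5e from -0.071 to 0.16 and Xdh was -0.023 without SD 1. With array weights Gda was -0.13 and Xdh -0.0043. The members other than Ada past an unadjusted p numbered 2, but 1 with the filter and without the variance trend, 3 with totals outside the caseins, and 1 to 2 without a library. Nt5e gave no value under the filter.

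Genes past an unadjusted p and a fold of 1.3 numbered 133 higher and 332 lower in EE (28.6% higher). They were 209 and 244 with quantile scaling (46.1%), 191 and 283 with median centring (40.3%), 588 and 201 with totals outside the caseins (74.5%), which moved the median of all genes by 0.12 (log2), and 233 and 403 with log2 of the count plus 1. Without a library they ranged over 123 to 197 and over 215 (without EE 3) to 530 (without EE 4). The adjusted threshold was passed by 1 gene with quantile scaling (Mcf2l), and by 0 to 1 without a library (Cd14 without SD 2, Akap9 without SD 4). The list genes called, 3 higher and 2 lower, were 9 and 1 with totals outside the caseins, 1 lower with quantile scaling and without the trend, and 2 to 5 higher and 1 to 4 lower without a library. List medians took the other sign in 18 of 180 alternatives, over 5 of the 10 lists (receptors 10, kinases 4, breakdown 2, ecto-nucleotidases 1, branch from IMP 1). With totals outside the caseins they were 0.049 for the branch from IMP, 0.063 for ecto-nucleotidases, 0.087 for kinases and 0.19 for receptors. The casein difference ranged from -10.9 to -5.78 points.

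Same-numbered libraries did not deviate together (correlations -0.094 to 0.28), so the numbers were not taken as pairs. With the replicate block, 1 member and 4 lower list genes passed the unadjusted p, 132 genes were higher and 421 lower, and 0 passed the adjusted p. Depth limits Nt5e and other genes of few reads, and 5 libraries a group limit small differences.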
